A study of Mus musculus with 4 samples.

Results

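The Dlk1-Dio3 region of mouse chromosome 12 carries one of the largest groups of microRNA genes in the genome, and the microRNAs described here are those of this region that lie outside the group antisense to Rtl1. They were chosen by name, as every listed microRNA whose number is one of 42 numbers of this region, with any letter, arm suffix or star. Of the 508 microRNAs listed in the series, 59 were chosen, from 40 of the 42 numbers (miR-453 and miR-654 had no row), and all 59 were listed in each of the 4 libraries. The libraries are of small RNA from mouse embryonic fibroblasts, a culture derived from embryos, which bear the short hairpin RNA (shRNA) shLuc.1309 against luciferase, a gene that mice lack. Each of the 4 groups was 1 library: the shLuc.1309 strain without dox (doxycycline), the same strain with dox, the strain shLuc.1309;ROSA-rtTA without dox, and shLuc.1309;ROSA-rtTA with dox. rtTA is a reverse tetracycline transactivator, a protein that turns on a tetracycline-responsive promoter in the presence of dox. ROSA stands for Rosa26, a broadly active mouse locus. All groups thus carry the shRNA, and the last of them is the group in which it is induced. The labels give a growth temperature of 24 degrees C for all samples and name neither the age of the embryos nor the number of embryos behind a library. Levels are given in CPM, a microRNA's counts per 1000000 counts of all endogenous microRNAs, with the shRNA left out.

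The region is imprinted: Dlk1, Rtl1 and Dio3 are transcribed from the paternal chromosome, and the long noncoding RNAs Meg3, Rian and Mirg and the microRNAs from the maternal one. The microRNAs are thought to be cut from long transcripts that run through the whole domain, so that many hairpins share one precursor. The cluster is best known from the brain, the placenta and embryonic tissues, and its silencing has been used as a mark of mouse pluripotent cells of low developmental potential. A hairpin can give a microRNA from its 5' side (5p) and from its 3' side (3p), and a star marks the arm that was named as the passenger strand.

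All 59 sequences matched a RefSeq microRNA entry on the plus strand of chromosome 12 (GRCm38), 56 as the annotated mature form and 3 within the annotated hairpin (miR-376c, miR-485 and miR-487b). They came from 42 hairpins, and 36 lay on the 3p and 23 on the 5p arm. Of the 59, 7 lay on the Meg3 side (both arms of miR-770, miR-673 and miR-540, and miR-493), with both arms of miR-770 in an exon of Meg3 (109541001 to 109571726). The next 3, miR-341, miR-1188 and miR-370, lay in introns of Rian (109603940 to 109661716). The other 49 lay between 109709065 (miR-379) and 109743784 (miR-410), a block of 34.7 kilobases. Of these, 12 lay in introns and 5 in exons of Mirg (109729764 to 109749460), and the rest of the block in no annotated gene other than a microRNA gene in GENCODE M21.

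The sequences below are those on which the comparisons turn, read 5' to 3' from the deposited files, with the seed (bases 2 to 8, which pair with targets) in capitals. The first set holds both arms of hairpins whose arms differed between the libraries, apart from those of miR-409 and miR-540.
miR-323-5p: aGGTGGTCcgtggcgcgttcgc
miR-323-3p: cACATTACacggtcgacctct
miR-382: gAAGTTGTtcgtggtggattcg
miR-382*: tCATTCACggacaacacttttt
miR-299: tATGTGGGacggtaaaccgctt
miR-299*: tGGTTTACcgtcccacatacat
miR-485: aGAGGCTGgccgtgatgaattc
miR-485*: aGTCATACacggctctcctctc
miR-411: tAGTAGACcgtatagcgtacg
miR-411*: tATGTAACacggtccactaacc

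The second set holds other members that were at least 2-fold apart between 2 libraries.
miR-370: gCCTGCTGgggtggaacctggt
miR-329: aACACACCcagctaaccttttt
miR-1193: tAGGTCACccgttttactatc
miR-1197: tAGGACACatggtctacttct
miR-495: aAACAAACatggtgcacttctt
miR-543: aAACATTCgcggtgcacttctt
miR-496: tGAGTATTacatggccaatctc
miR-369-3p: aATAATACatggttgatcttt
miR-410: aATATAACacagatggcctgt
miR-544: aTTCTGCAtttttagcaagctc
miR-667: tGACACCTgccacccagcccaag

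The third set holds abundant members whose seeds differ from that of another member by 1 of 7 bases. These are the neighbours miR-376a, miR-376b and miR-376c (a related group known for A-to-I editing in the brain), miR-379 beside miR-411 (printed above), and miR-300 beside miR-381.
miR-376a: aTCGTAGAggaaaatccacgt
miR-376b: aTCATAGAggaacatccactt
miR-376c: aACATAGAggaaatttcacgt
miR-379: tGGTAGACtatggaacgtagg
miR-300: tATGCAAGggcaagctctcttc
miR-381: tATACAAGggcaagctctctgt

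The 59 members held 58 distinct seeds, so the cluster spans many target sets. The 1 shared seed was that of miR-376b* and miR-376c*, which are also near-identical over their length, so that reads could have been credited to either. Of the other pairs whose seeds differ by 1 base, miR-300 and miR-381 differ at 3 of 22 positions and miR-376a and miR-376b at 3 of 21. With 24 members starting with T (U in the RNA), 22 with A, 9 with G and 4 with C, most started with U or A, the first bases that Argonaute proteins are known to prefer.

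The 59 members together held 5.23% of the endogenous counts in cells without rtTA and without dox (95% interval 5.21% to 5.25%, Clopper-Pearson). The share was 5.93% without rtTA and with dox (5.92% to 5.95%), 4.82% in rtTA cells without dox (4.80% to 4.83%) and 5.56% in rtTA cells with dox (5.54% to 5.57%). The intervals do not overlap, but they cover counting error only, and with 1 library per group a difference has no replicate check. The share was higher with dox than without it in both genotypes and lower with rtTA than without it at either dox state. In such bulk RNA, fewer cells that make a microRNA and less of it per cell cannot be told apart.

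Levels within the cluster spanned a 6475-fold range of mean CPM, although the hairpins lie close together on one strand. The low end, miR-376c*, rests on 5 to 12 counts per library. Neither CPM of different microRNAs nor arm shares were corrected for ligation and base-composition preferences of the library. Of the members, 15 had a mean of at least 1000 CPM, 15 of 100 to under 1000, 22 of 10 to under 100, and 7 were under 10. The 4 most abundant held 48.2% of all member counts and the 12 most abundant 82.5%. Members of the block between miR-379 and miR-410 held 96.3%.

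miR-379, the first microRNA of the block and the most abundant member, stood at 6908 CPM without rtTA or dox, 7861 CPM with dox only, 6826 CPM with rtTA only and 9517 CPM with both (the induced library). miR-541, from near the other end of the block within an intron of Mirg, had 7431, 5380, 6389 and 9087 CPM in the same order. miR-376a had 5658, 7957, 5811 and 6756 CPM. The induced library was thus the highest of the 4 for miR-379 and miR-541, but not for miR-376a, which was highest in the dox-treated library without rtTA.

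The remaining 9 of the 12 most abundant members ranged from a mean of 1633 CPM (miR-381) to 4480.5 CPM (miR-411). miR-134, known for limiting the size of dendritic spines in neurons, stood at 1819, 1878, 1547 and 2574 CPM in the order given above. miR-382 had 2826, 2659, 2538 and 3923 CPM, and miR-409-3p 1497, 1576, 1396 and 2139.6 CPM. These 3 were highest in the induced library.

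miR-369-3p, known from work on translation activated in resting cells, had 1883, 3537, 2468 and 1300.5 CPM. miR-376c had 2521, 3848, 2853 and 1919 CPM, and miR-376b 1787, 2419, 1745 and 1185 CPM. These were lowest in the induced library and highest in the dox-treated library without rtTA, as were miR-300 (3638, 4521, 3042 and 2599 CPM) and miR-381 (1708, 2077, 1459.9 and 1288 CPM). miR-411 had 4531, 5411, 3416 and 4564 CPM, lowest in rtTA cells without dox.

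**Figure D1:**
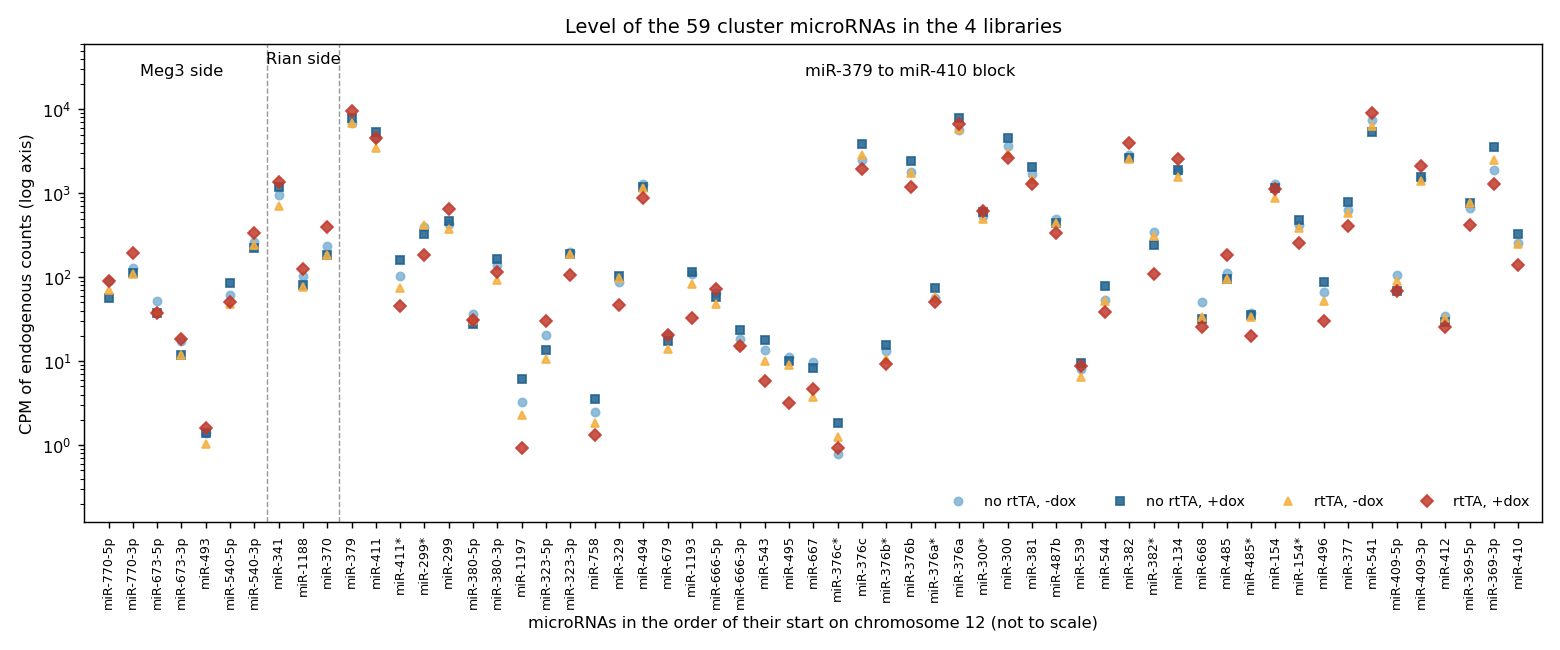
CPM (log axis) of the 59 microRNAs in each of the 4 libraries, 1 point per library, in their order on chromosome 12; dashed lines divide the Meg3 side, the Rian side and the block. Levels run from about 1 CPM (miR-376c*, mean 1.20) to the mean of 7778 CPM of miR-379, and for many members the induced library (diamonds) is the lowest or highest of the 4 points.

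The libraries held 6383594 to 8780954 counts, and the shRNA took 2.38% of them in the induced library against 0.0725% to 0.0786% in the others. Of 10 fibroblast and mesenchymal marker microRNAs 9 were listed (miR-199a-3p had no row), with a summed level of 446661 to 462748 CPM. Of 7 epithelial markers 7 were listed, at a sum of 5.49 to 20.3 CPM, and of 12 pluripotent markers 7, at 0.784 to 1.47 CPM; miR-290, miR-291a, miR-302c, miR-302d and miR-367 had no row in any library. Neuronal markers (8 of 8 listed) summed to 551, 672, 654 and 804 CPM in the library order above, and muscle markers (4 of 4) to 262, 246, 382 and 592 CPM. Both sums were highest in the induced library, and their part in the results below was not tested. Blood (6 of 6), endothelial (2 of 2) and liver (1 of 1) markers summed to 52.5 to 82.2, 119.6 to 175 and 2.51 to 3.99 CPM.

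Ratios between libraries were compared for microRNAs with a mean CPM worth at least 20 counts in the shallowest library (3.14 CPM). Of the 59 members 56 passed, of 372 microRNAs in all; miR-758, miR-493 and miR-376c* did not, with 5 to 23 counts per library. Members are called higher or lower where 2 libraries were at least 2-fold apart and the 95% counting interval of the ratio excluded equality. No p-value was computed, since each group has 1 library, and all ratios compare libraries.

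Dox in rtTA cells sets the induced library against the uninduced one of the same genotype, and asks whether a strongly expressed shRNA goes with other levels of endogenous microRNAs. The drug, culture and library preparation cannot be told apart from the shRNA with 1 library each. The cluster split: miR-370 and miR-323-5p were counted as higher, and miR-382*, miR-495, miR-1193, miR-299* and miR-329 as lower. The 2 higher of 56 members (3.57%) stand against 1.34% of all compared microRNAs, and the 5 lower (8.93%) against 8.6%, and the 7 in either direction against 9.95%, so the share lower was near that of all microRNAs. The median log2 ratio of the 56 members was -0.14, beside -0.06 over all 372, and 30 lay below 0. The summed counts of the members gave 0.21. Of the 4 most abundant members all lay above 0 (0.22 to 0.51), while miR-300, miR-376c, miR-369-3p, miR-376b and miR-381 lay below it.

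miR-370, from an intron of Rian, had 235 and 184 CPM in the libraries without rtTA (-dox, +dox) and 183 and 393 CPM in those with rtTA. The induced library stood above the 3 others, which lay close to each other. Its log2 ratio with dox in rtTA cells was 1.10 (95% interval 1.01 to 1.19), on 2954 against 1607 counts. miR-323-5p had 20.5, 13.5, 10.7 and 30.0 CPM in the same order and a log2 ratio of 1.48 (1.13 to 1.85), on 225 against 94 counts. It is a rare arm, and the uninduced rtTA library, against which it was compared, was the lowest of the 4. miR-485, whose 5p arm is known to limit a presynaptic vesicle protein, came close at 0.98 (0.85 to 1.11), with 113, 94.8, 94.5 and 186 CPM. It was counted as higher under both TMM and DESeq2 scaling, which gave 3 higher members (5.36%). Of all compared microRNAs, 2.15% were higher under TMM and 1.88% under DESeq2 scaling.

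Of the lower members, miR-382* had 344, 241, 306 and 109.9 CPM and a log2 ratio of -1.48 (-1.59 to -1.36). miR-299* had 401, 325, 422 and 186 CPM (-1.18, -1.27 to -1.09), and miR-1193 109, 114, 81.9 and 32.4 CPM (-1.34, -1.56 to -1.13). In each of them the induced library was the lowest of the 4. miR-329, which with miR-134 and miR-381 is known from dendrite growth after neuronal activity, had 87.8, 103, 98.2 and 46.6 CPM (-1.08, -1.26 to -0.89). miR-495 had the lowest ratio, -1.51 (-2.24 to -0.84), on 24 against 80 counts, with 11.3, 10.1, 9.12 and 3.20 CPM. Again the 3 uninduced libraries lay close together and the induced one below them.

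With a linear trend of the ratio on the percentage of G subtracted, 0 members were higher and 1 was lower (miR-495, 1.79% of the members). Over all 372 the same setting gave 2 higher (0.538%) and 7 lower (1.88%). miR-370 then stood at 0.24 and miR-323-5p at 0.62. Of the abundant members, miR-134 went from 0.73 to -0.13, miR-382 from 0.63 to -0.04 and miR-379 from 0.48 to -0.07, so their direction depends on this choice.

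For rtTA with dox, the reference is the dox-treated library without the transactivator, and the induced library is the one already used above. Genotype, embryo, culture and library preparation cannot be told apart from the shRNA here with 1 library each. Here 13 of 56 members (23.2%) were lower, against 14.2% of all compared microRNAs, and 2 (3.57%) higher, against 2.42%. In either direction 16.7% of all compared microRNAs passed, beside 15 of 56 members. The median log2 ratio of the members was -0.43, beside -0.07 over all 372, and 37 of 56 lay below 0. All 13 lower members lay in the block between miR-379 and miR-410, as did 47 of the 56 compared members. All 13 were 3p arms, as were 34 of the 56.

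The abundant members among them were miR-369-3p (log2 ratio -1.44, 95% interval -1.48 to -1.41), miR-376b (-1.03, -1.07 to -0.99) and miR-376c (-1.004, -1.03 to -0.97). The last 2 sit at the 2-fold limit, and neither was counted under TMM or DESeq2 scaling. miR-376a, whose seed differs from that of miR-376b by 1 base, was at -0.24 (-0.25 to -0.22). The trio thus did not move alike, and the intervals of miR-376a and of the other 2 do not overlap.

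Of medium level were miR-411* (-1.83, -2.01 to -1.66; 103, 162, 74.0 and 45.4 CPM in the library order above) and miR-410 (-1.22, -1.33 to -1.12; 259, 329, 251 and 141 CPM). miR-1193 was at -1.82, miR-496 at -1.56 (66.0, 88.2, 51.9 and 29.8 CPM), miR-329 at -1.14, miR-382* at -1.13 and miR-544 at -1.06. In miR-411*, miR-410, miR-496 and miR-544 the dox-treated library without rtTA was the highest of the 4, so that it and the induced library lay at opposite ends. The rare ones were miR-543 (-1.60, on 44 against 116 counts), miR-495 (-1.66, 24 against 66) and miR-1197 (-2.71, -4.12 to -1.54, on 7 against 40 counts). miR-1197 rests on so few counts that its interval is the widest of the 13.

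The 2 higher members were again miR-370 (1.10, 1.001 to 1.20) and miR-323-5p (1.16, 0.79 to 1.53). miR-541 was at 0.76 (0.74 to 0.77), miR-382 at 0.56 and miR-379 at 0.28. The last 2 changed sign with the trend on G subtracted, to -0.24 and -0.38. With the trend on G subtracted no member (0) was counted as higher and 7 as lower (12.5%), with 6 shared with the 13. Over all 372 that setting gave 6 higher (1.61%) and 24 lower (6.45%). miR-1193, miR-1197, miR-411*, miR-495, miR-496 and miR-543 were still counted, and miR-666-3p was added.

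**Figure D2:**
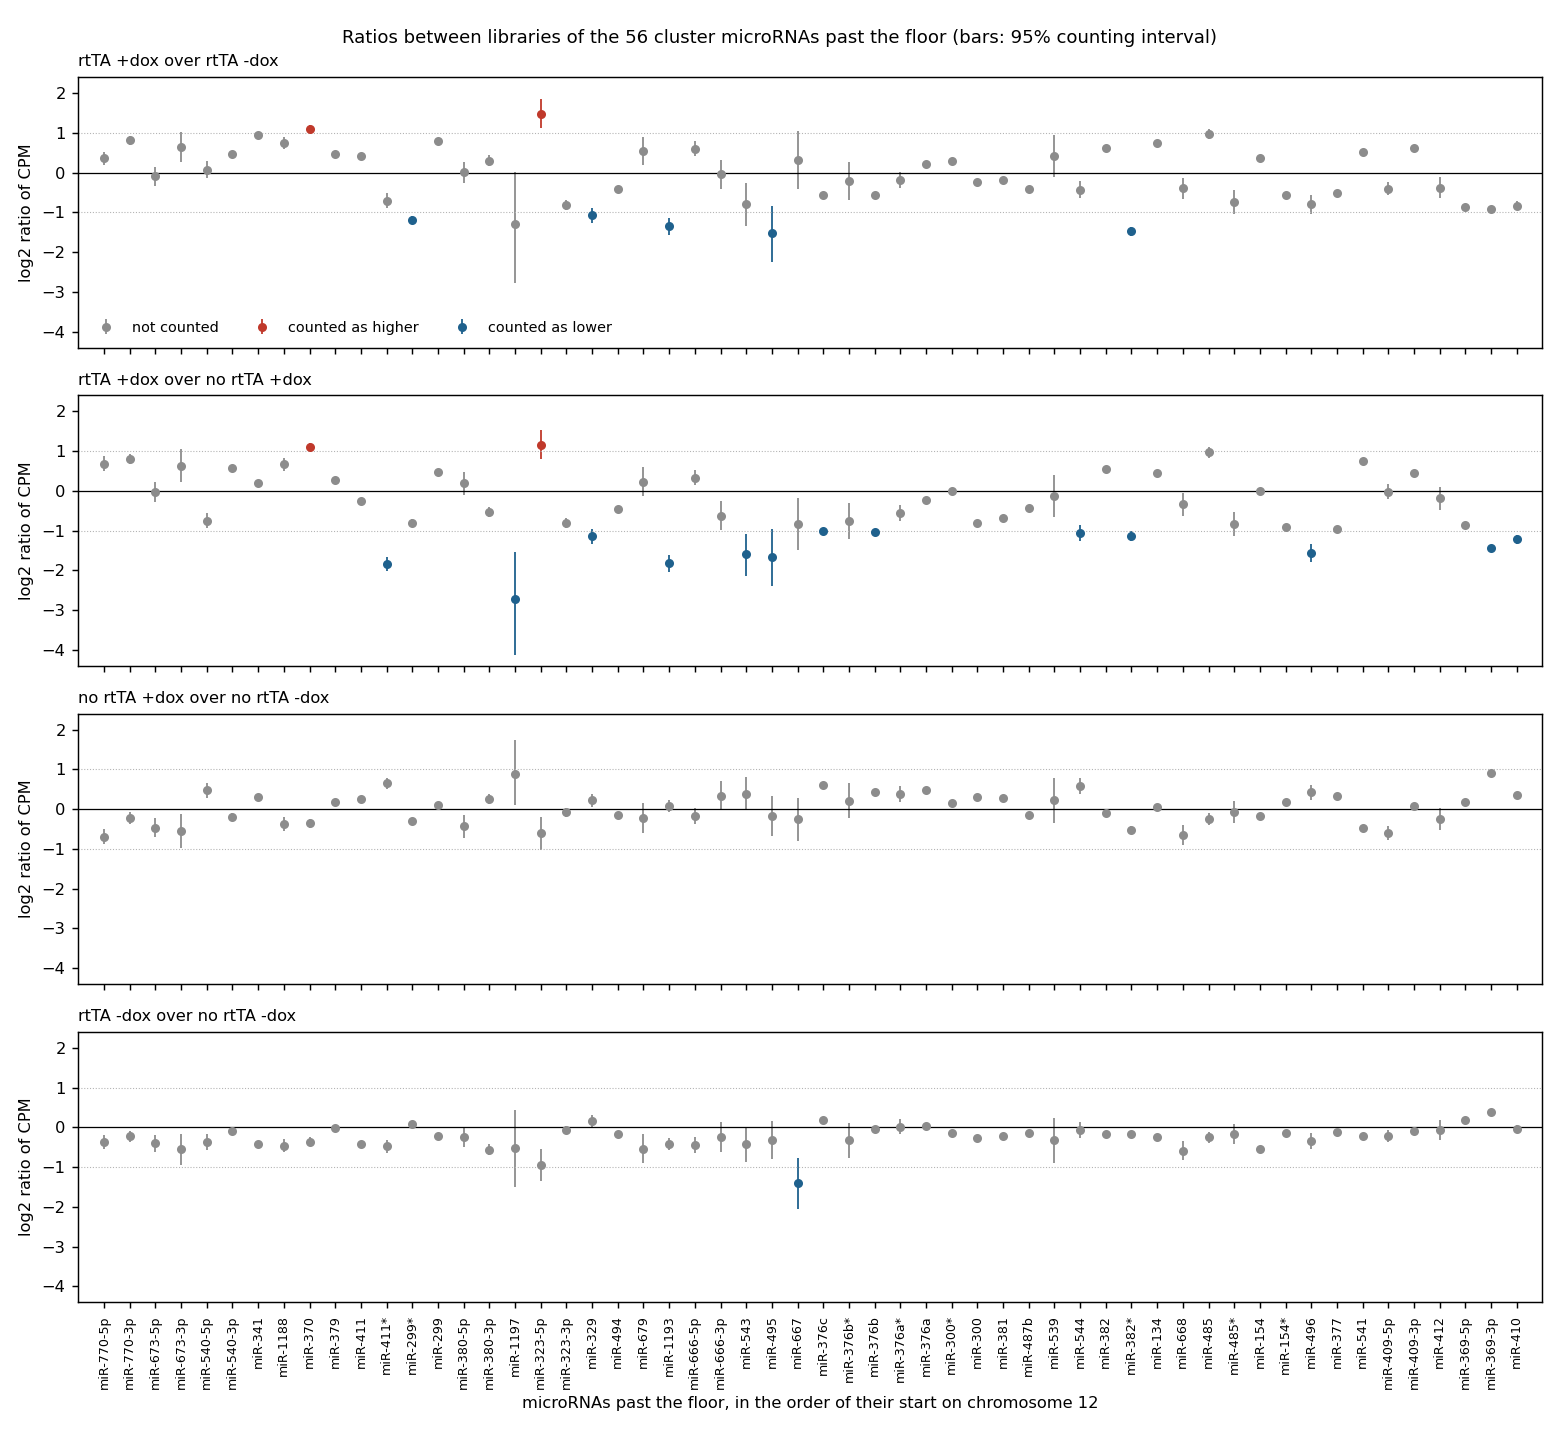
Log2 ratios of CPM between 2 libraries for the 56 members past the floor, in their order on chromosome 12, with 95% counting intervals as bars; dotted lines mark a 2-fold difference. Coloured points are the members counted as higher or lower: 2 and 5 with dox in rtTA cells, 2 and 13 with rtTA under dox, 0 and 0 with dox alone, and 0 and 1 with rtTA alone.

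Dox without rtTA (dox alone) compares libraries whose labels differ in the drug, with the shRNA at a low share in both. Culture and library preparation cannot be told apart from the drug with 1 library each. Of the 56 members 0 were higher, against 0.806% of all compared microRNAs, and 0 lower, against 0.806% (1.61% in either direction). The median log2 ratio was 0.07, beside -0.04 over all 372, and 48 members lay within 1.5-fold. The members farthest from 0 were miR-369-3p (0.91, 0.88 to 0.94), miR-1197 (0.89, 0.10 to 1.73), miR-770-5p (-0.69, -0.88 to -0.50) and miR-411* (0.65, 0.51 to 0.79). miR-376c was at 0.61, miR-376a at 0.49 and miR-376b at 0.44, all above 0, and miR-541 at -0.47. These differences are larger than counting error allows and smaller than 2-fold.

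For rtTA without dox (rtTA alone), neither library was treated and the labels differ in rtTA. Embryo, culture and library preparation cannot be told apart from it with 1 library each. Of 56 members 49 lay below 0 and 7 above, with a median log2 ratio of -0.23, beside -0.07 over all 372 and 217 of 372 below 0. DESeq2 scaling put 44 below 0 and 12 above (median -0.17). The shift was small for most members: 54 lay within 1.5-fold, 0 were counted as higher (0.538% of all compared microRNAs) and 1 as lower (1.34% of all, and 1.88% in either direction). The member counted as lower, miR-667, had 9.88, 8.26, 3.76 and 4.66 CPM. Its log2 ratio was -1.39 (-2.05 to -0.76), on 33 against 63 counts. Both of its rtTA libraries lay below both libraries without rtTA. The other member beyond 1.5-fold was miR-323-5p, at -0.94, which was not counted.

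The abundant members differed among themselves in this comparison: miR-411 was at -0.41 (-0.43 to -0.38), miR-154 at -0.54 (-0.59 to -0.50) and miR-341 at -0.42, while miR-379 was at -0.02 (-0.03 to 0.00) and miR-369-3p at 0.39 (0.36 to 0.42). On the Meg3 and Rian sides all 9 compared members lay below 0, between -0.55 and -0.10. Across the 56 members the Pearson correlation of the ratio with the log2 of the mean CPM was 0.50, so the rarer members had the lower ratios. These points share the same pair of libraries, and the value is a description.

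The dox ratios of both genotypes share no library and were set against each other. They pointed opposite ways in 34 of 56 members, beside 213 of 372 in all. In 18 members the ratios were at least 2-fold apart with a delta-method counting interval that excluded equality. Of these, 7 were higher with rtTA (12.5% of the members, against 5.65% of all compared) and 11 lower (19.6%, against 12.4%). The largest differences were those of miR-1197 (-2.10, -3.53 to -0.68), miR-323-5p (2.09, 1.57 to 2.61) and miR-369-3p (-1.83, -1.88 to -1.79). miR-369-3p was nearly 2-fold higher with dox in cells without rtTA and nearly 2-fold lower with dox in cells with it. With the trend on G subtracted from both ratios, 1 member was higher (1.79%) and 2 were lower (3.57%) with rtTA, beside 2.96% and 7.26% of all compared. The differences of miR-1188 and miR-770-3p then changed sign, from 1.13 to -0.26 and from 1.03 to -0.23.

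Both arms of a hairpin come from one precursor. The share of each arm is taken within a library, so it does not depend on how libraries are scaled. In 17 hairpins both arms were listed, with at least 20 counts in every library. The 3 hairpins of the miR-376 trio gave 0.0311% to 1.001% of their counts from the star arm in every library, and miR-411* gave 0.985% to 2.90%. The shares of the other 13 rarer arms ran from 2.72% (miR-382*) to 52.9% (miR-299*).

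miR-299* held 47.9% of the counts of its hairpin without rtTA and without dox (46.6% to 49.3%, Clopper-Pearson), 40.8% with dox alone, 52.9% with rtTA alone and 22.3% (21.2% to 23.3%) in the induced library. The named passenger strand was thus the more abundant arm in the uninduced rtTA library only. miR-382* held 10.9%, 8.31%, 10.7% and 2.72% in the same order, and miR-485* 25.0%, 27.3%, 26.0% and 9.68%. In these 3 hairpins the star arm took less than in any other library once the shRNA was induced.

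miR-323-5p showed the opposite, with 9.42% (7.94% to 11.1%), 6.73%, 5.40% and 21.9% (19.4% to 24.5%). With dox in rtTA cells miR-323-5p was at 1.48 and its partner miR-323-3p at -0.81 (-0.94 to -0.69). Likewise miR-382 was at 0.63 while miR-382* was at -1.48, and miR-299 at 0.79 (0.73 to 0.85) while miR-299* was at -1.18. In 11 of the 17 hairpins the arms lay on opposite sides of 0 in this comparison, and in 10 with rtTA under dox. Those of miR-154, miR-299, miR-380, miR-409, miR-540 and miR-666 did so with dox alone. With rtTA alone only the arms of miR-299 did so (miR-299* at 0.08 and miR-299 at -0.21). The same count over other hairpins is not given here.

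With dox in rtTA cells, the rarer arm had odds at least 2-fold higher in 1 of 17 hairpins (miR-323, 5.88%) and lower in 5 (29.4%). By the same rule it was higher in 4 (3.70%) and lower in 15 (13.9%) of 108 other hairpins with both arms listed. The 5 were those of miR-382* (log2 odds ratio -2.10), miR-299* (-1.97), miR-485* (-1.71), miR-411* (-1.12) and miR-409-5p (-1.02). Under dox, rtTA gave 1 higher (miR-323-5p, 1.95) and 5 lower, with miR-540-5p (-1.32) in place of miR-409-5p, beside 7 (6.48%) and 18 (16.7%) of the other hairpins. With dox alone and with rtTA alone 0 hairpins of the cluster differed by that much, beside 7 and 5 of the 108 others in either direction.

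**Figure D3:**
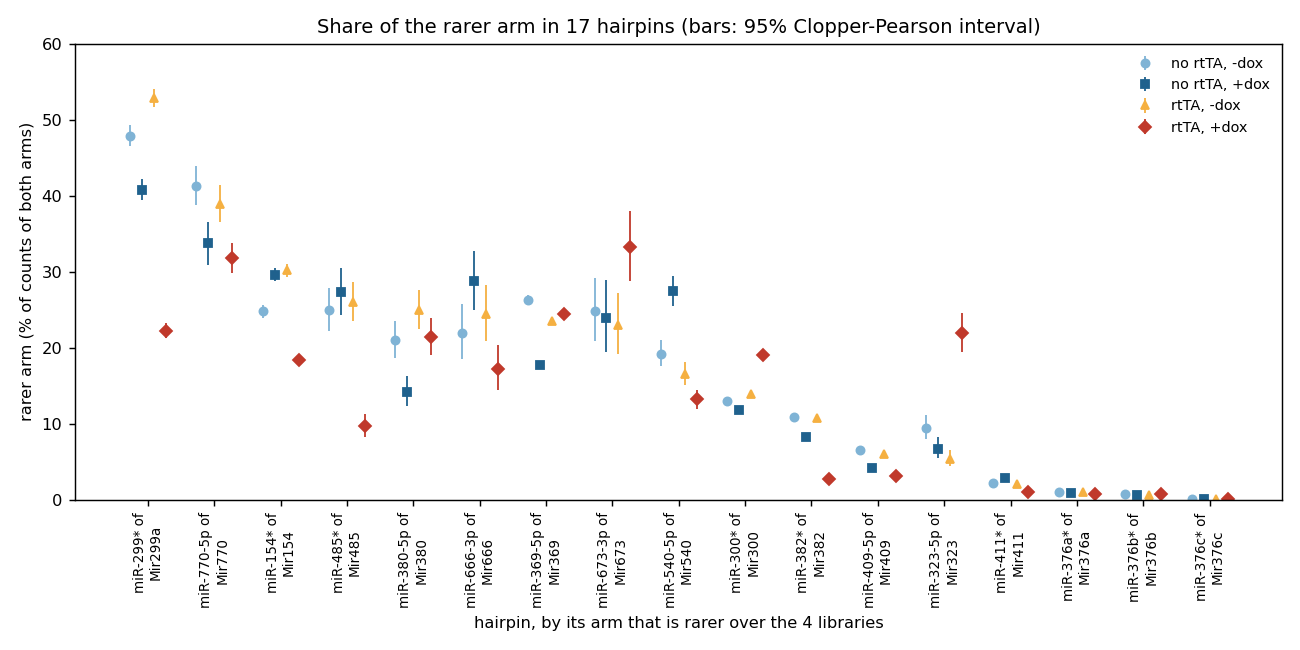
Share of the rarer arm in the counts of both arms for 17 hairpins with both arms listed, 1 point per library with its 95% Clopper-Pearson interval. In the induced library (diamonds) miR-299*, miR-485* and miR-382* take 22.3%, 9.68% and 2.72%, below the other 3 libraries, and miR-323-5p takes 21.9%, above them.

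The arms that were higher in the induced library held more G. miR-323-5p has 45.5% G and miR-323-3p 14.3%, miR-382 has 40.9% and miR-382* 9.09%, and miR-485 has 36.4% and miR-485* 13.6%. With dox in rtTA cells the arm with more G had the higher ratio in 15 of 17 hairpins of the cluster, and in 81 of 103 other hairpins whose arms differ in G. Under dox, rtTA gave 16 of 17 and 75 of 103. With dox alone the counts were 5 of 17 and 52 of 103, and with rtTA alone 8 of 17 and 53 of 103.

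Across single members the ratios also moved with the percentage of G. Pearson's r over the 56 members was 0.86 with dox in rtTA cells and 0.80 with rtTA under dox, beside 0.68 and 0.68 over the 316 other microRNAs. With dox alone it was -0.35 (others -0.18) and with rtTA alone -0.27 (others 0.04). The points of one comparison share both libraries, and these values are descriptions. What in the induced library moves with base composition was not tested.

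Divided at the median of all compared microRNAs (23.8% G), the cluster divided. With rtTA under dox all 31 members below that value had a ratio under 0 (median -0.85; 30 of 31 under TMM, DESeq2 or scaling without the 10 most abundant microRNAs) and 13 of them were lower, while of the 25 at or above it 19 lay above 0 (median 0.44) and 0 were lower. Other microRNAs below the same value had a median of -0.45, with 38 of 151 lower, and those at or above it 0.22, with 2 of 165 lower. With dox in rtTA cells the members' medians (below, then at or above) were -0.57 and 0.55, and the others' -0.33 and 0.17. The division ran the same way in the cluster as elsewhere, and whether the members differ from other microRNAs of equal G content was not tested.

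Arm and place went with G content. The 22 compared 5p members had a median of 28.3% G and a median log2 ratio of 0.39 with dox in rtTA cells, and the 34 3p members 18.2% G and -0.42. The 6 compared members of the Meg3 side had a median of 33.3% G and a ratio of 0.41, and the 3 of the Rian side 45.5% G and 0.95. In the block, 47 compared members had a median of 20.8% G and -0.38. Since these features go together, their parts cannot be told apart by such medians.

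**Figure D4:**
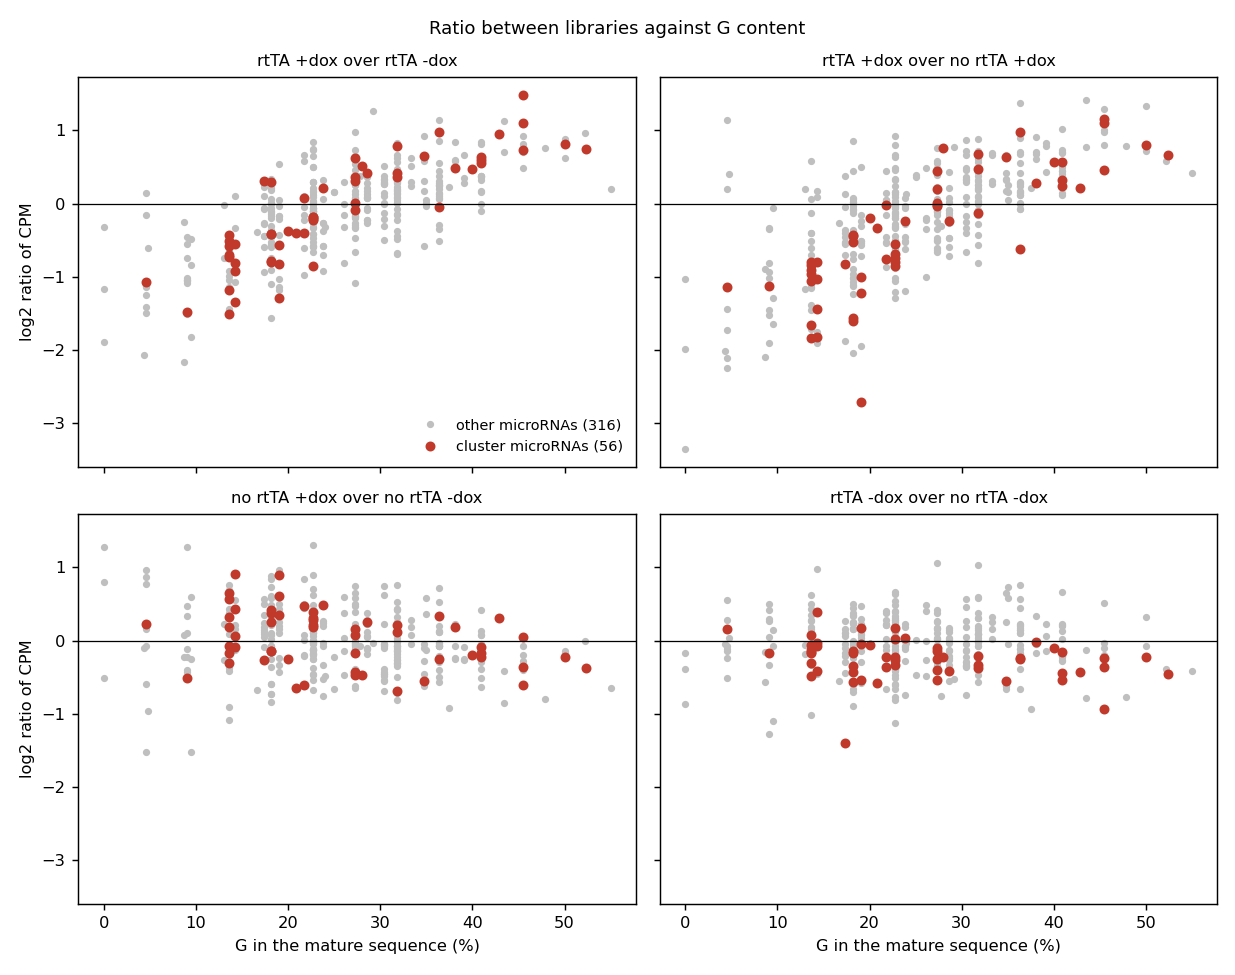
Log2 ratio of CPM against the percentage of G in the mature sequence for the 56 members (red) and 316 other compared microRNAs (grey), 1 panel per comparison. In the panels with the induced library (top) the members rise from left to right, with a Pearson r of 0.86 and 0.80; in the panels without it (bottom) r is -0.35 and -0.27.

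Seen by library, the induced one was the lowest of the 4 for 30 of 56 members (53.6%, beside 42.2% of all compared microRNAs) and the highest for 17 (30.4%, beside 28.0%). The 30 had a median of 18.2% G and the 17 a median of 40.9%. The uninduced rtTA library was the lowest for 21 members (37.5%, beside 18.5% of all) and the highest for 1, miR-299* (1.79%, beside 14.8%). The dox-treated library without rtTA was the highest for 24 members (42.9%, beside 30.9%).

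Rtl1 (109589193 to 109600330) lies between the Meg3 side and the Rian side. The neighbouring microRNAs antisense to Rtl1 (such as miR-127, miR-136 and miR-431) are known to cut the Rtl1 transcript. All 13 listed passed the floor. With dox in rtTA cells 0 of 13 were higher and 1 lower (median log2 ratio 0.07), and with rtTA under dox 0 were higher and 2 lower (-0.04). With rtTA alone 11 of 13 lay below 0 (median -0.21), beside 49 of 56 of the members (-0.23), and with dox alone the median was 0.02. Their median G content was 28.6%, above the 22.7% of the members.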

How the data were processed

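Small RNA reads were counted per microRNA in 4 libraries, 1 per group, grouped by the labels' titles. The deposited files hold unnormalized read counts per microRNA, per the file headers and the whole-number values. The aligner, the microRNA database and the treatment of reads matching several microRNAs: not given in the sources used here. A microRNA without a row in a library was taken as 0. Counts were divided by the endogenous total (6378964 to 8774056) to give CPM. The floor, the 2-fold rule and the list of alternatives apply to all 372 compared microRNAs. Intervals of ratios are exact conditional binomial (Clopper-Pearson) 95% intervals. Intervals of odds ratios and of differences of ratios use the delta method with 0.5 added to each count. Reads copied by PCR and lacking molecular identifiers are no independent molecules, and all intervals cover counting error only. The rule for higher and lower was tested on simulated counts with known fold changes. Alternatives were TMM (edgeR 4.0.16) and DESeq2 (1.42.0) scaling, totals without the 10 most abundant microRNAs, a floor of 5 counts or none, subtraction of a linear trend on G (slope times the distance from the mean G), and microRNAs with a listed copy at most 2 mismatches away left out. No edgeR or DESeq2 test was run, since no group has a replicate. Sequences are those of the deposited files, positions those of their match in RefSeq (GRCm38.p6), and genes those of GENCODE M21. The authors' build is not given. The rule for named microRNAs took the 12 members of highest mean CPM, every member counted as higher or lower, hairpins whose rarer-arm odds differed at least 2-fold or whose abundant arm is starred or differs between libraries, and members sharing a seed. Examples beyond these (such as miR-154, miR-341, miR-300 beside miR-381 as a pair, and the G and place groups) were chosen after their values were seen. The members and lists were chosen with earlier results of these data known. Computations used Python 3.11.15, scipy 1.17.1 and R 4.3.3.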

Additional observations from a re-analysis of the deposited data

Results flagged for a closer look

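In 14 of 56 members (25.0%, beside 45 of all 372 compared microRNAs, 12.1%) the dox ratio pointed one way with rtTA and the other way without it, each beyond its counting interval, and the log2 ratios were at least 1 apart. With 1 library per group the difference was not tested across samples. The differences (log2 ratio with rtTA minus that without) were -1.83 for miR-369-3p, -1.35 for miR-411*, -1.30 for miR-329, -1.21 for miR-496, -1.18 for miR-376c, -1.18 for miR-410 and -1.03 for miR-369-5p. They were 1.03 for miR-770-3p, 1.05 for miR-770-5p, 1.13 for miR-1188, 1.18 for miR-673-3p, 1.23 for miR-485, 1.46 for miR-370 and 2.09 for miR-323-5p. Of the 7 with a negative difference, G content was 4.55% (miR-329) to 22.7% (miR-369-5p), and of the 7 with a positive one 31.8% (miR-770-5p) to 52.4% (miR-1188).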

How the results depend on the processing

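Counts of members and their medians were recomputed under 7 alternatives, and the arm counts, which do not depend on scaling, with a minimum of 100 counts over both arms. Subtracting the trend on G moved the counts with the induced library: with dox in rtTA cells from 2 higher and 5 lower to 0 and 1, with rtTA under dox from 2 and 13 to 0 and 7, and for the difference of the dox ratios from 7 and 11 to 1 and 2. Totals without the 10 most abundant microRNAs gave, by construction, larger shares for the members: 13.1% without rtTA or dox, 15.0% with dox only, 12.2% with rtTA only and 14.3% with both. No other alternative moved the number of members counted as higher or lower by over 1.5 times, or their median beyond the members' median counting interval. The number of members above 0 went from 7 to 12 under DESeq2 scaling for rtTA without dox, and from 19 to 11 with the trend on G subtracted for rtTA with dox. No member counted in the 4 comparisons changed sign in the comparison that counted it. Of the 18 members counted for the difference of the dox ratios, miR-1188 and miR-770-3p changed sign with the trend on G subtracted. Among named members that were not counted, signs did change with the trend on G subtracted (miR-379, miR-382 and miR-134 with dox in rtTA cells). Scaling also changed the sign of ratios near 0. With rtTA alone, where TMM scaling shifted every log2 ratio by 0.024 and DESeq2 scaling by 0.066, miR-379 (-0.017) changed sign under both. miR-376b (-0.034), miR-410 (-0.044), miR-544 (-0.061) and miR-412 (-0.065) did so under DESeq2 scaling. The alternatives for the difference of the dox ratios and for the shares were added after the data were seen. No paired analysis was possible because each group has 1 library. Depth limits miR-1197, miR-495 and miR-667, which rest on 7 to 80 counts per library.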
